A study of Mus musculus with 9 samples.

Results

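The genes described here are 39 genes of cell division in mouse undifferentiated spermatogonia, chosen by name from the authors' table of 23813 entries: 21 genes of mitosis and its entry (G2/M) and 18 genes of DNA replication and its control (S-phase). All 39 were found and all 39 passed the filter on low values, which kept the 11142 genes that reached 1 FPKM in 3 or more of the 9 libraries. FPKM counts fragments relative to transcript length and to the mapped total of a library, so levels can be compared between genes. The cells came from testes of C57BL/6 pups at postnatal day 6 that carried an Id4-EGFP transgene (line LT-11B6), in every group. The 3 groups had 3 preparations each, namely the 1/3 of ID4-EGFP+ cells with the strongest antibody staining for the surface tetraspanin TSPAN8 (TSPAN8-high), the 1/3 with the weakest positive staining (TSPAN8-low), and ID4-EGFP+ cells not divided by TSPAN8 (all ID4-EGFP+). All groups were gated on a reporter driven by Id4, so cells without it were not sampled, and the sources used here do not say which litters a preparation came from. P-values therefore measure the spread between preparations, which may be technical.

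Undifferentiated spermatogonia are the germ cells that hold the stem cells of the testis, and they divide mitotically before meiosis begins. In a dividing cell, E2F transcription factors and cyclin E-Cdk2 open S phase, the MCM helicase is loaded at replication origins, and PCNA holds the polymerases on DNA. After S phase, cyclin B-Cdk1, the Polo and Aurora kinases and the spindle checkpoint carry the cell through mitosis, and the anaphase-promoting complex with CDC20 ends it. Transcripts of most of these proteins rise and fall with the cycle, so in a mixed population their level depends on how many cells are in each phase. In bulk libraries such as these, fewer cells in a phase and less RNA per cell cannot be told apart.

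The labels were checked first. Tspan8, the sorted protein's gene, stood at 43.7, 29.6 and 28.8 FPKM in TSPAN8-high, 6.65, 10.8 and 11.8 FPKM in TSPAN8-low, and 14.5, 14.2 and 16.8 FPKM in all ID4-EGFP+. Id4, whose promoter drives the reporter, stood at 71.1, 71.6 and 58.9 FPKM in TSPAN8-high, 17.7, 27.0 and 33.9 FPKM in TSPAN8-low, and 30.6, 38.0 and 38.2 FPKM in all ID4-EGFP+. Both genes were higher in every TSPAN8-high library than in any other. The germ cell markers Dazl, an RNA-binding protein gene (1148 to 1849 FPKM), and Ddx4, an RNA helicase gene (347 to 652 FPKM), were abundant in every library, and Ddx4 was itself higher in TSPAN8-high with the replicate block described below (log2 fold change 0.55, limma adjusted p = 0.124, 0.0245 with the block). Of the 10 germ cell markers, 3 passed as higher in TSPAN8-high (Tspan8, Id4 and Gfra1, for a GDNF receptor) and 2 as lower (Kit and Stra8, markers of differentiating spermatogonia), and the last 3 of these 5 are named after their values were seen. Kit stood at 1.56, 1.69 and 2.12 FPKM in TSPAN8-high, 8.26, 5.59 and 5.18 FPKM in TSPAN8-low, and 5.35, 4.23 and 4.35 FPKM in all ID4-EGFP+. Stra8 stood at 84.3, 81.9 and 107 FPKM in TSPAN8-high, 202, 186 and 174 FPKM in TSPAN8-low, and 159, 154 and 144 FPKM in all ID4-EGFP+. The fractions thus also differ in markers of germ cell state, whose part in the differences of the division genes was not tested. Of 13 markers of Sertoli cells, the somatic cells that surround germ cells, 12 were in the table and 5 passed the filter, while the defining markers Sox9, Amh, Wt1 and Gata4 were under 1 FPKM in every library. The summed level of the 12 was 87.8 to 223 FPKM in TSPAN8-high, 11.1 to 137 FPKM in TSPAN8-low and 15.9 to 103 FPKM in all ID4-EGFP+. The most abundant 2 were Clu, with 19.1, 24.2 and 60.6 FPKM in TSPAN8-high, 2.38, 3.45 and 31.6 FPKM in TSPAN8-low and 2.49, 15.3 and 26.4 FPKM in all ID4-EGFP+, and Cst9, with 24.4, 34.3 and 54.9 FPKM in TSPAN8-high, 0.900, 5.91 and 41.5 FPKM in TSPAN8-low and 3.24, 10.8 and 21.8 FPKM in all ID4-EGFP+. Markers of Leydig, endothelial and red blood cells summed to at most 6.48, 1.66 and 0.833 FPKM in any library, those of peritubular myoid and interstitial cells to at most 7.17 and 13.7 FPKM, and those of leukocytes to at most 22.6 FPKM. The Leydig and red blood cell maxima were in TSPAN8-low and the others in TSPAN8-high. Leukocyte markers summed to 12.6 to 22.6 FPKM in TSPAN8-high, 5.13 to 12.7 FPKM in TSPAN8-low and 7.49 to 11.7 FPKM in all ID4-EGFP+. Cd68 was the largest part of each sum, with 12.4, 14.3 and 12.3 FPKM in TSPAN8-high and 5.13, 8.63 and 12.5 FPKM in TSPAN8-low. Lyz2 reached 7.95 FPKM in TSPAN8-high replicate 3, while Ptprc and Csf1r were under 1 FPKM in every library. These leukocyte genes are named after their values were seen. The part of such cells in the differences was not tested. FPKM does not show absolute depth. Set against all ID4-EGFP+ replicate 1, relative depth was 1.01 to 1.05 in TSPAN8-high, 0.856 to 0.945 in TSPAN8-low and 0.916 to 1.03 in all ID4-EGFP+. Every TSPAN8-low library was thus below every TSPAN8-high library, and the part of depth in the differences was not tested.

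The promoters of the 2 subsets differ in known sequence elements, and stretches of 7 members' promoters are shown here. Mki67, Top2a, Cdc20, Cenpe, Mcm3 and Mcm7 are the members higher in TSPAN8-high in the fit with a replicate block, and Mcm6 is shown for its E2F matches. As background, many G2/M promoters hold CCAAT boxes, bound by NF-Y, with a cell cycle genes homology region (CHR), and many S-phase promoters hold E2F sites. RefSeq promoters of build GRCm38.p6 were available for 32 of the 39 members and not for Aurkb, Ccna2, Ccne2, Gins1, Gins2, Mcm4 and Tpx2. The expression table was made on mm9, so these coordinates belong to the promoter sequences alone. Each sequence is the 150 bases before the start site, 5′ to 3′ on the gene's own strand, and capitals mark CCAAT, CHR or E2F motif letters on either strand.
Mki67 (GRCm38.p6, chr7:135716380-135716529, minus strand): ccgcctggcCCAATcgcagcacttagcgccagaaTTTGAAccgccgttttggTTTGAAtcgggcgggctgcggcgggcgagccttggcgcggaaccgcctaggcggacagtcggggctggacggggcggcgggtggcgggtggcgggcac
Top2a (GRCm38.p6, chr11:99024190-99024339, minus strand): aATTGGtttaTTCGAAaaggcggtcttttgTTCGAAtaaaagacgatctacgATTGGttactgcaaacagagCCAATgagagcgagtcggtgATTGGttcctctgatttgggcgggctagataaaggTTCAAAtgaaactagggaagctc
Cdc20 (GRCm38.p6, chr4:118437344-118437493, minus strand): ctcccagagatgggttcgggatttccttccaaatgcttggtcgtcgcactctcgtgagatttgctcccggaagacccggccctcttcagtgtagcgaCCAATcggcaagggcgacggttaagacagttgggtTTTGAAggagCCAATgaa
Cenpe (GRCm38.p6, chr3:135212413-135212562, plus strand): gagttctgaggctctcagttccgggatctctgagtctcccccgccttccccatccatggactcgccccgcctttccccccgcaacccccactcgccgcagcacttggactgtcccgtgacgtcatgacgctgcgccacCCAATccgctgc
Mcm6 (GRCm38.p6, chr1:128359706-128359855, minus strand): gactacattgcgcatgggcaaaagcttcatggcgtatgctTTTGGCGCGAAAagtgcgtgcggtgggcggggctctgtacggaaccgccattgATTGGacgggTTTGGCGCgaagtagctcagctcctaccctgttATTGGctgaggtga
Mcm3 (GRCm38.p6, chr1:20820313-20820462, minus strand): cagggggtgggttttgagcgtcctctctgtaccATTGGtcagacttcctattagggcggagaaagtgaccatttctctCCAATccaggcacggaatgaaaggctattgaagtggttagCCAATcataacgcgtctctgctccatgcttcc
Mcm7 (GRCm38.p6, chr5:138171884-138172033, minus strand): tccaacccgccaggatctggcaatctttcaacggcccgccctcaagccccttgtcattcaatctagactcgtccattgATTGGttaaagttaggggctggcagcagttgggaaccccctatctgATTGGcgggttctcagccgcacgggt
Top2a, for topoisomerase II alpha, had 3 CHR matches in these 150 bases, at 140, 120 and 23 bases before the start site, and Mki67, for the proliferation antigen Ki-67, had matches at 116 and 98 bases. Mcm6, for a subunit of the replicative helicase, had 3 E2F matches, at 110, 106 and 47 bases, and the first 2 share letters. The E2F matches of Mcm3 and Mcm7 and the CHR match of Mcm7 lie outside the stretch shown.

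Over the whole window of 300 bases, 250 before and 50 after the start site, a CHR (TTTGAA or TTCGAA) was present in 13 of 18 G2/M promoters (72.2%) and 2 of 14 S-phase promoters (14.3%), against 13.7% of 8335 promoters of tested genes and 19.4% of all 27025 promoters. A CCAAT was present in 16 of 18 G2/M promoters (88.9%) and 8 of 14 S-phase promoters (57.1%), against 40.5% of promoters of tested genes and 37.9% of all. Both motifs together were found in 72.2% of the G2/M promoters, 14.3% of the S-phase promoters, 6.07% of promoters of tested genes and 7.70% of all. The order was turned for the E2F motif (TTTGGCGC, TTTCCCGC, TTTGCCGC or TTTCGCGC), which was present in 6 of 14 S-phase promoters (42.9%) and 1 of 18 G2/M promoters (5.56%, Cdk1), against 4.48% of promoters of tested genes and 2.32% of all. All motifs were searched on both strands, and 4 of the 92 matches in members' promoters overlapped a match of another motif. A match is a run of letters and not a shown binding site.

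Both subsets were transcribed well above the average gene in all ID4-EGFP+ cells. Mean FPKM over the 3 libraries ran from 9.33 for Mki67 to 665 for Pcna, with a median of 82.9 FPKM over the G2/M genes and 67.9 FPKM over the S-phase genes, against 10.4 FPKM over all tested genes. Of the 39 members, 38 lay above that median, all but Mki67, and 9 lay above the 90th percentile (7 of the G2/M genes and 2 of the S-phase genes). The lowest value of any member in any library was 7.98 FPKM. Ccnb1 and Pcna, the most abundant members of their subsets, have processed pseudogenes in the GENCODE M21 annotation that match their transcripts at 95% identity or more over at least 300 bases, as do Cdc6, Mad2l1, Mcm7 and Rrm2, so the levels of these 6 genes are uncertain where reads could be split between copies.

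**Figure D1:**
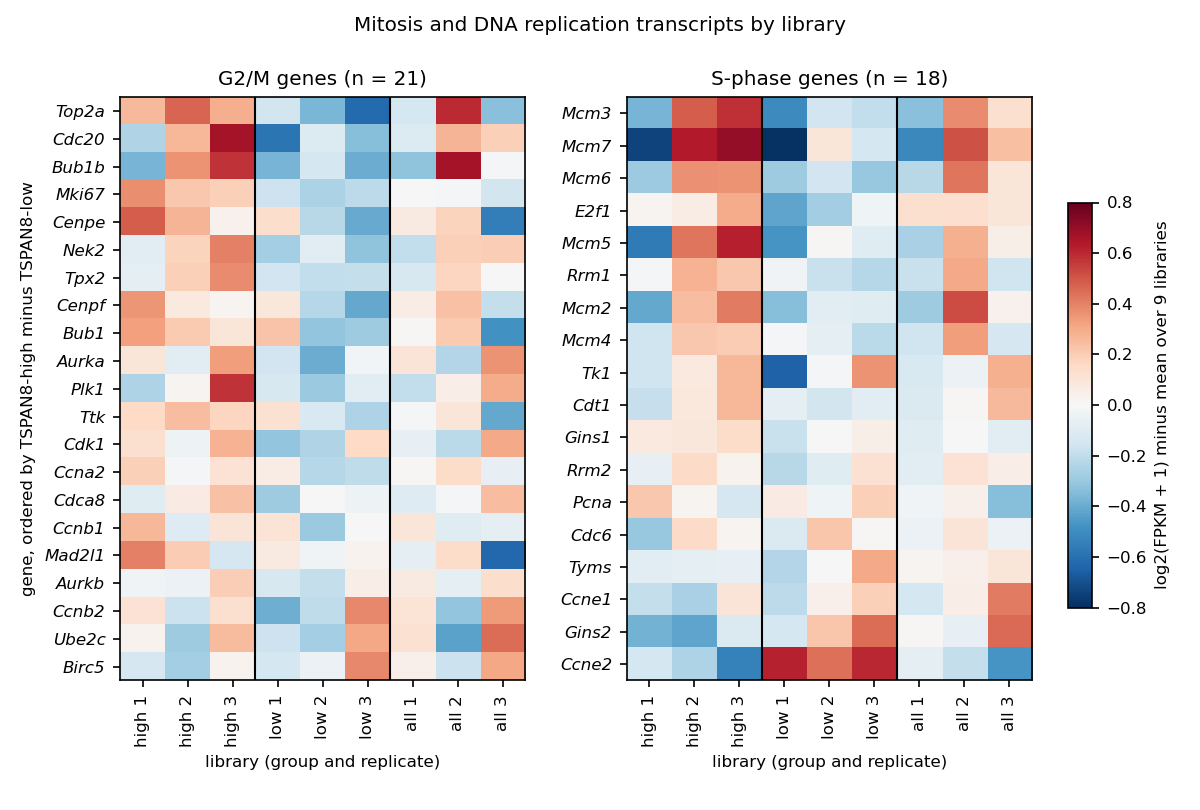
Deviation of each member's log2(FPKM + 1) from its mean over the 9 libraries, with the 21 G2/M genes and the 18 S-phase genes as rows and the libraries of TSPAN8-high, TSPAN8-low and all ID4-EGFP+ as columns. The G2/M rows are mostly above their mean in TSPAN8-high and below it in TSPAN8-low, Ccne2 shows the opposite, and most MCM rows are low in replicate 1 of each group.

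The first question was whether the cells at the 2 ends of TSPAN8 staining differ in transcripts of mitosis and replication. In TSPAN8-high against TSPAN8-low, 1 of the 39 members passed the test, Ccne2, which fell, and no G2/M gene did (limma on log2(FPKM + 1), Benjamini-Hochberg adjusted p under 0.05 over all 11142 genes). The background in this comparison was 5.56% of all tested genes, with 3.41% higher and 2.15% lower in TSPAN8-high. At an unadjusted p under 0.05, 5 of the 21 G2/M genes were counted, all with estimates above 0, against 22% of all tested genes. The estimates of the G2/M genes lay mostly on one side: 20 of 21 were above 0, all but Birc5, with a median log2 fold change of 0.29, while 56.6% of all tested genes were above 0, with a median of 0.05. Genes of a subset share libraries and can vary together, so counts of signs are descriptions and not a test. Of the S-phase genes 12 of 18 were above 0, with a median of 0.16. Scaling each library to a common median moved the medians to 0.20 for the G2/M genes, 0.07 for the S-phase genes and -0.04 for all tested genes, with 19 of 21, 12 of 18 and 44.9% of estimates above 0. Under that scaling the split of genes past the test was 228 higher and 362 lower, against 380 higher and 239 lower without it, and Ccne2 was again the member called.

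The labels number the samples within each group and state no pairing across groups. The numbers were taken to pair the samples because same-numbered libraries deviated together in these same data. A fit with the number as a block gave more calls. With the block 8 of the 39 members passed (20.5%), against 19.1% of all tested genes, so the share of members was near the background. Mki67, Top2a, Cdc20 and Cenpe of the G2/M genes and Mcm3 and Mcm7 of the S-phase genes were higher in TSPAN8-high, and Ccne2 and Gins2 were lower. By direction, 19.0% of the G2/M genes and 11.1% of the S-phase genes were called higher, against 11.8% of all tested genes, and 0 of the G2/M genes and 11.1% of the S-phase genes were called lower, against 7.34%. With the block and each of the 9 libraries left out in turn, Ccne2 passed in 9 of 9, Top2a and Cdc20 in 7, Mki67, Mcm3, Mcm7 and Gins2 in 5 and Cenpe in 4. Without TSPAN8-high replicate 3, or without replicate 3 of all groups, Ccne2 was the 1 member left with the block, without TSPAN8-low replicate 2 there were 2, 3 were left on removing either TSPAN8-high replicate 2 or TSPAN8-low replicate 3, without TSPAN8-low replicate 1 there were 15, and without replicate 1 or replicate 2 of all groups there were 11 and 3.

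**Figure D2:**
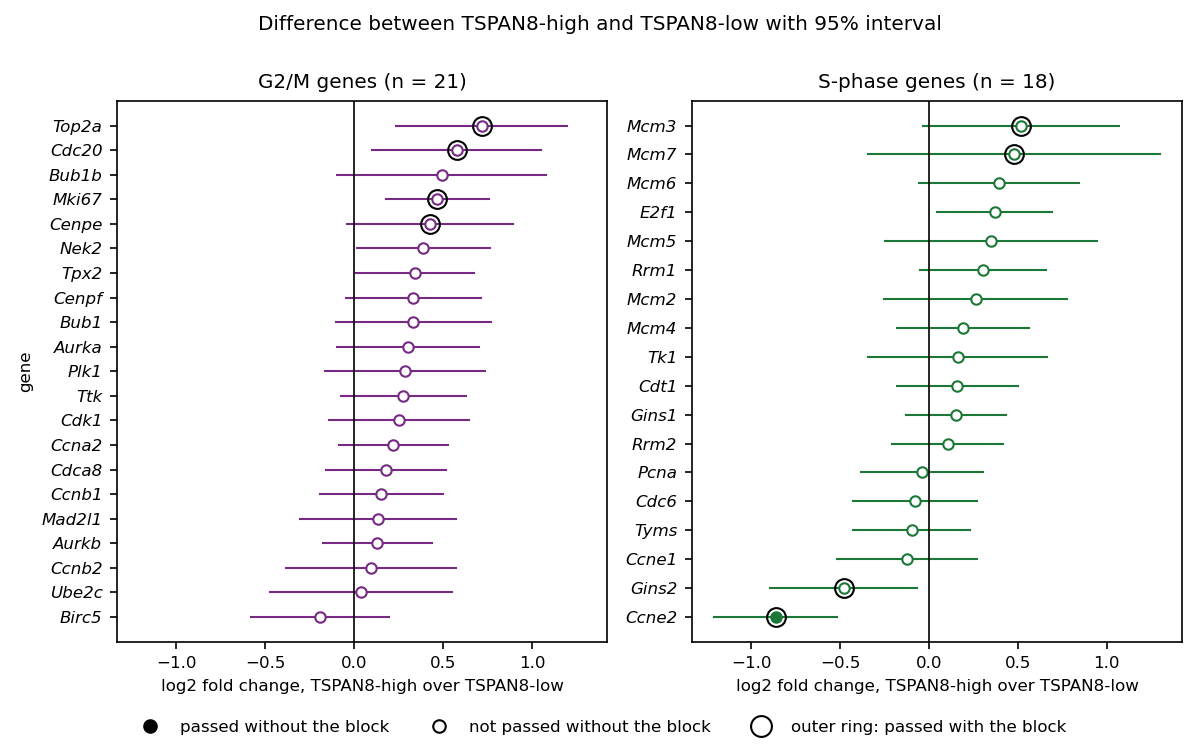
Log2 fold change of each member, TSPAN8-high against TSPAN8-low, on the log2(FPKM + 1) scale, with the 95% interval of the limma fit without the replicate block; a filled point passed without the block and an outer ring marks members that passed with it. Estimates of 20 of 21 G2/M genes lie right of 0, and Ccne2 stands apart at -0.86.

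Among the G2/M genes, the 2 with the smallest p are widely used markers of cycling cells. Mki67, for the Ki-67 protein that coats mitotic chromosomes, stood at 12.8, 11.4 and 11.2 FPKM in TSPAN8-high, 8.52, 7.98 and 8.24 FPKM in TSPAN8-low, and 9.73, 9.61 and 8.67 FPKM in all ID4-EGFP+. The 3 groups did not overlap, with TSPAN8-high above all ID4-EGFP+ and TSPAN8-low below. Its log2 fold change was 0.47 (SE 0.13), with an adjusted p of 0.0606 in limma, 0.0428 without the filter on low values and 0.0154 with the replicate block. With a common median the log2 fold change was 0.38 (limma adjusted p = 0.121, 0.0389 with the block). The authors' normalized values gave 0.39 (limma adjusted p = 0.106), and quantile normalization gave 0.39 (limma adjusted p = 0.110). With the block, Mki67 passed in 0 of the 3 fits that left out a replicate number. Top2a, for the enzyme that untangles sister chromatids, stood at 60.7, 70.1 and 62.0 FPKM in TSPAN8-high, 45.5, 38.9 and 32.6 FPKM in TSPAN8-low, and 45.8, 77.1 and 39.8 FPKM in all ID4-EGFP+. TSPAN8-high and TSPAN8-low did not overlap, while all ID4-EGFP+ held both the highest value, in replicate 2, and 2 values near those of TSPAN8-low. The log2 fold change was 0.72 (SE 0.22), the highest of the 39 estimates, with an adjusted p of 0.0823 in limma and 0.0124 with the block. For both genes an exact permutation test of the fractions (two-sided) had p = 0.1, and 3 libraries a group cannot give a smaller one.

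Cdc20 and Cenpe act in anaphase and chromosome alignment, and both passed with the block but not without it. Cdc20, the activator of the anaphase-promoting complex, stood at 73.7, 105 and 139 FPKM in TSPAN8-high, 57.6, 80.5 and 68.6 FPKM in TSPAN8-low, and 80.5, 105 and 99.5 FPKM in all ID4-EGFP+. TSPAN8-high replicate 1 lay within the range of TSPAN8-low, but TSPAN8-high was higher within each of the 3 replicate numbers. The log2 fold change was 0.58 (SE 0.22, adjusted p = 0.149 in limma, 0.0136 with the block). Cenpe, the kinetochore motor that moves chromosomes to the spindle equator, stood at 71.9, 62.0 and 52.5 FPKM in TSPAN8-high, 56.4, 43.7 and 38.4 FPKM in TSPAN8-low, and 53.8, 57.9 and 34.6 FPKM in all ID4-EGFP+. Its groups overlapped through TSPAN8-high replicate 3 and TSPAN8-low replicate 1, and values were lowest in replicate 3 of each group. The log2 fold change was 0.43 (SE 0.21, adjusted p = 0.265 in limma, 0.0340 with the block).

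Nek2 and Tpx2, which act at the spindle poles, did not pass in either fit. Nek2, for a kinase of centrosome separation, stood at 16.6, 20.1 and 23.8 FPKM in TSPAN8-high, 14.5, 16.6 and 14.0 FPKM in TSPAN8-low, and 15.3, 20.4 and 20.5 FPKM in all ID4-EGFP+ (log2 fold change 0.39, limma adjusted p = 0.207, 0.0544 with the block). TSPAN8-high replicate 1 and TSPAN8-low replicate 2 had about the same value, and the other 2 TSPAN8-high values lay above all of TSPAN8-low. Tpx2, for the activator of Aurora A on spindle microtubules, stood at 30.2, 36.5 and 41.8 FPKM in TSPAN8-high, 28.6, 27.7 and 27.8 FPKM in TSPAN8-low, and 29.1, 36.0 and 32.0 FPKM in all ID4-EGFP+ (log2 fold change 0.34, limma adjusted p = 0.211, 0.0733 with the block). TSPAN8-low lay below both other groups in every library.

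The most abundant G2/M genes had small estimates. Ccnb1, for cyclin B1, the partner of Cdk1, stood at 708, 548 and 631 FPKM in TSPAN8-high, 635, 479 and 587 FPKM in TSPAN8-low, and 628, 551 and 559 FPKM in all ID4-EGFP+ (log2 fold change 0.15, limma adjusted p = 0.612). The groups overlapped, yet TSPAN8-high exceeded TSPAN8-low of the same replicate number in 3 of 3. Mad2l1, for a spindle checkpoint protein, stood at 414, 359 and 285 FPKM in TSPAN8-high, 329, 306 and 319 FPKM in TSPAN8-low, and 298, 346 and 202 FPKM in all ID4-EGFP+ (log2 fold change 0.13, limma adjusted p = 0.739). Birc5, for survivin of the chromosomal passenger complex, was the 1 G2/M gene with an estimate below 0, with 172, 156 and 192 FPKM in TSPAN8-high, 171, 183 and 247 FPKM in TSPAN8-low, and 195, 168 and 234 FPKM in all ID4-EGFP+ (log2 fold change -0.19, 95% interval -0.58 to 0.20). Its values overlapped between all 3 groups.

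The remaining 12 G2/M genes had estimates of 0.04 (Ube2c, a ubiquitin-conjugating enzyme of the anaphase-promoting complex) to 0.49 (Bub1b, the checkpoint kinase-like BubR1), and none passed in either fit. Among the kinases that drive mitosis, Cdk1 had a log2 fold change of 0.25, Aurka 0.30, Aurkb 0.13 and Plk1 0.29 (limma adjusted p from 0.356 to 0.628). The checkpoint kinase genes Bub1 and Ttk had log2 fold changes of 0.33 and 0.28, and the cyclin genes Ccna2 and Ccnb2 of 0.22 and 0.09. Cenpf, for a kinetochore protein, and Cdca8, for borealin of the chromosomal passenger complex, had 0.33 and 0.18. Of these 12, Ttk alone had groups that did not overlap, higher in TSPAN8-high. For Ccna2, 12.5% of the annotated exon bases lie on Exosc9 of the opposite strand, at 85.9 to 136 FPKM and with a log2 fold change of 0.35 (limma adjusted p = 0.255). The part of Exosc9 reads in the Ccna2 values was not tested. For Ube2c, 22.8% of the annotated exon bases lie on Tnnc2 of the opposite strand, and the cDNA kit does not mark strand, but Tnnc2 had at most 1.18 FPKM in any library.

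**Figure D3:**
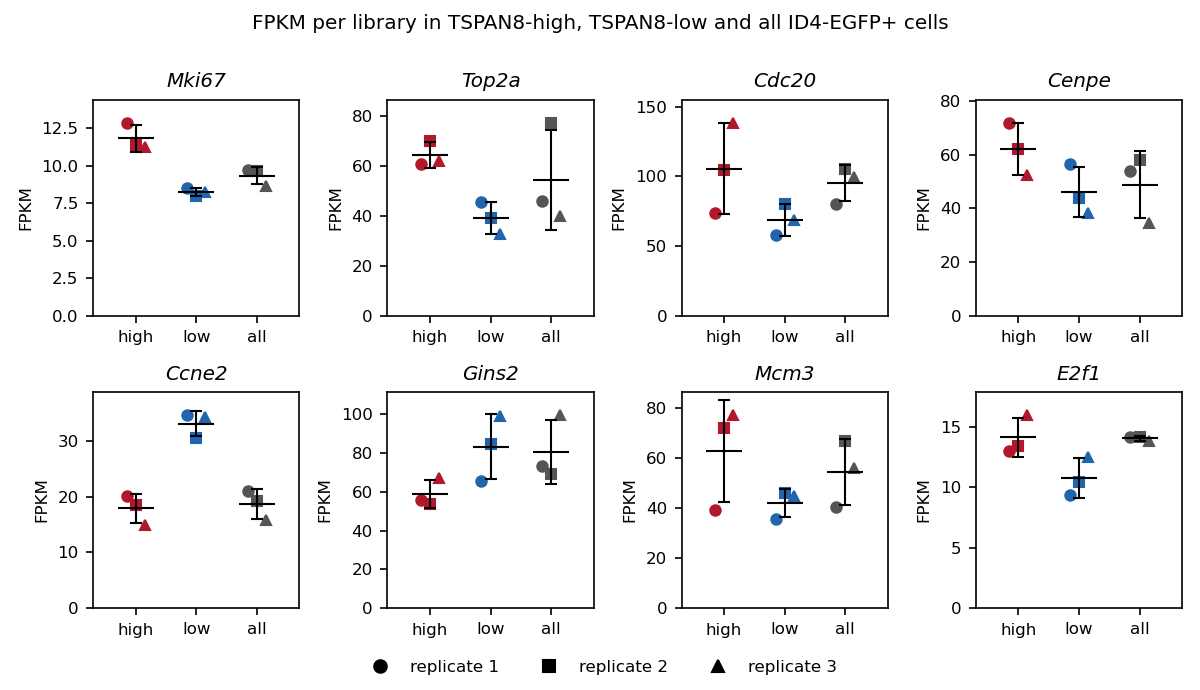
FPKM of 8 members in each library (points, TSPAN8-high, TSPAN8-low and all ID4-EGFP+ from left to right, with a symbol for each replicate number), the group mean (horizontal line) and SD (error bar, n = 3); each vertical axis starts at 0. Ccne2 is at 15.0 to 20.1 FPKM in TSPAN8-high and 30.6 to 34.6 FPKM in TSPAN8-low, without overlap.

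Within the same replicate number, the difference between TSPAN8-high and TSPAN8-low had the same direction for most G2/M genes. Of the 21, 15 were higher in TSPAN8-high in 3 of 3 numbers (71.4%) and 0 were lower in 3 of 3, against 31.4% and 22.0% of all tested genes. The 21 genes share these libraries and are not independent, so this count is a description and not a test. The medians over the G2/M genes were 0.19, 0.30 and 0.38 on the log2 scale in numbers 1, 2 and 3, against 0.03, 0.06 and 0.05 over all tested genes. Of the 18 S-phase genes, 5 were higher in 3 of 3 (27.8%) and 2 lower in 3 of 3 (11.1%, Ccne2 and Gins2), and their medians were 0.02, 0.24 and 0.21. The summed Sertoli marker level was also higher in TSPAN8-high, as given above, and its 5 tested genes passed with the replicate block and not without it. With the mean Sertoli marker level as a covariate the G2/M median was 0.27 and the S-phase median 0.03, and with the covariate and the block together 0 members and 1 gene in all passed, at a median SE over the members of 0.32, against 0.12 with the block alone.

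**Figure D4:**
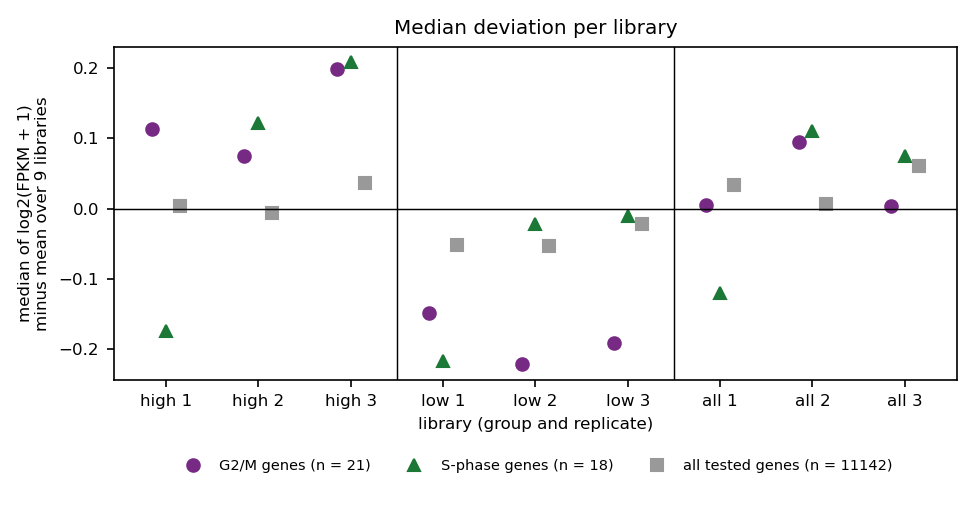
Median deviation, on the log2 scale, of the G2/M genes, the S-phase genes and all tested genes in each library from the mean over the 9 libraries. The G2/M median is above 0 in the 3 TSPAN8-high libraries (0.08 to 0.20) and below 0 in the 3 TSPAN8-low libraries (-0.22 to -0.15). In all ID4-EGFP+ it is also above 0 (0.003 to 0.095), and in replicate 2 it exceeds that of TSPAN8-high (0.095 against 0.075). The S-phase median is lowest in replicate 1 of each group.

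Ccne2, for cyclin E2, which with Cdk2 opens S phase, was the member with the clearest difference, and it ran against most of the others. It stood at 20.1, 18.6 and 15.0 FPKM in TSPAN8-high, 34.6, 30.6 and 34.3 FPKM in TSPAN8-low, and 20.99, 19.3 and 15.8 FPKM in all ID4-EGFP+. The TSPAN8-low libraries lay above all 6 others, while TSPAN8-high and all ID4-EGFP+ covered about the same range. Ccne2 averaged 17.9 ± 2.63 FPKM in TSPAN8-high and 33.2 ± 2.26 FPKM in TSPAN8-low (SD, n = 3 each), so that the high-to-low ratio was 0.539. The log2 fold change was -0.86 (SE 0.16, limma adjusted p = 0.0113, 0.00101 with the block), while the exact permutation p (two-sided) was 0.1. The call held without any single library, with a limma adjusted p of up to 0.0465, and was lost without the filter on low values (0.0565; Mki67, higher in TSPAN8-high, was the 1 member called there), with the Sertoli marker covariate (log2 fold change -0.72, adjusted p = 0.0600; Gins2 was the 1 member called there), and without replicate 2 or replicate 3 of all groups (0.128 and 0.105). Of its annotated exon bases 17.4% lie on Ints8 of the opposite strand, at 40.5 to 81.6 FPKM and with a log2 fold change of 0.08 (limma adjusted p = 0.869). The part of Ints8 reads in the Ccne2 values was not tested. Ccne1, for the sister protein cyclin E1, overlapped between groups, with 15.8, 15.0 and 19.6 FPKM in TSPAN8-high, 15.6, 18.7 and 20.9 FPKM in TSPAN8-low, and 16.5, 18.9 and 24.6 FPKM in all ID4-EGFP+ (log2 fold change -0.12, limma adjusted p = 0.729).

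Gins2, for a subunit of the GINS complex that joins the helicase at the fork, was the other S-phase gene lower in TSPAN8-high with the block. It stood at 55.6, 53.9 and 66.9 FPKM in TSPAN8-high, 65.7, 84.9 and 99.2 FPKM in TSPAN8-low, and 73.2, 69.2 and 99.6 FPKM in all ID4-EGFP+. TSPAN8-high replicate 3 lay just above TSPAN8-low replicate 1, and otherwise TSPAN8-high was below. The log2 fold change was -0.48 (SE 0.19, limma adjusted p = 0.162, 0.0158 with the block). As many as 67.3% of its annotated exon bases lie on Gse1 of the opposite strand, at 2.26 to 3.46 FPKM and with a log2 fold change of -0.08 (limma adjusted p = 0.785). Gins1, of the same complex, was higher in TSPAN8-high without overlap, with a log2 fold change of 0.15 (limma adjusted p = 0.520).

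The 6 subunits of the MCM2-7 helicase had estimates of 0.19 (Mcm4) to 0.52 (Mcm3), with Mcm2 at 0.26 and Mcm5 at 0.35. Mcm3 stood at 39.3, 72.2 and 77.2 FPKM in TSPAN8-high, 35.7, 45.9 and 44.7 FPKM in TSPAN8-low, and 40.5, 66.8 and 56.0 FPKM in all ID4-EGFP+. Replicate 1 was the lowest of each group, which made the groups overlap. The log2 fold change of Mcm3 was 0.52 (SE 0.25, limma adjusted p = 0.256, 0.0203 with the block), and that of Mcm7 was 0.48 (SE 0.38, limma adjusted p = 0.493, 0.0367 with the block). Mcm6, the most abundant, stood at 132, 209 and 209 FPKM in TSPAN8-high, 133, 146 and 131 FPKM in TSPAN8-low, and 139, 219 and 173 FPKM in all ID4-EGFP+ (log2 fold change 0.39, limma adjusted p = 0.296, 0.0609 with the block). In number 1 the fractions were alike, with differences between TSPAN8-high and TSPAN8-low of -0.14 to 0.13 on the log2 scale over the 6 subunits, while in number 2 they were 0.29 to 0.64 and in number 3 they were 0.42 to 0.84. The helicase genes thus stood higher in TSPAN8-high in 2 of the 3 replicate numbers.

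E2f1, the transcription factor of S-phase genes, stood at 13.0, 13.4 and 16.0 FPKM in TSPAN8-high, 9.34, 10.4 and 12.5 FPKM in TSPAN8-low, and 14.1, 14.2 and 13.8 FPKM in all ID4-EGFP+. TSPAN8-low lay below both other groups, without overlap, and TSPAN8-high and all ID4-EGFP+ overlapped. Its log2 fold change was 0.37 (SE 0.15, limma adjusted p = 0.174, 0.0530 with the block). Rrm1, for the large subunit of ribonucleotide reductase, stood at 101, 124 and 119 FPKM in TSPAN8-high, 100.2, 90.1 and 87.2 FPKM in TSPAN8-low, and 90.3, 126 and 91.3 FPKM in all ID4-EGFP+ (log2 fold change 0.30, limma adjusted p = 0.300). Its fractions did not overlap, although the lowest TSPAN8-high and highest TSPAN8-low values were close.

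Other S-phase genes had estimates near 0. Pcna, the sliding clamp, stood at 829, 725 and 649 FPKM in TSPAN8-high, 746, 698 and 813 FPKM in TSPAN8-low, and 698, 732 and 564 FPKM in all ID4-EGFP+ (log2 fold change -0.04, 95% interval -0.38 to 0.30), and its estimate was above 0 with quantile normalization (0.11) and with the authors' normalized values (0.04). Tyms, for thymidylate synthase, stood at 59.4, 60.1 and 60.2 FPKM in TSPAN8-high, 53.5, 63.1 and 78.2 FPKM in TSPAN8-low, and 64.0, 65.1 and 67.7 FPKM in all ID4-EGFP+ (log2 fold change -0.10, limma adjusted p = 0.745). Cdc6, which loads MCM at origins, stood at 9.35, 13.2 and 11.96 FPKM in TSPAN8-high, 10.8, 13.9 and 11.9 FPKM in TSPAN8-low, and 11.3, 12.7 and 11.4 FPKM in all ID4-EGFP+ (log2 fold change -0.08, limma adjusted p = 0.801). All 3 overlapped between the fractions. The loading factor Cdt1, thymidine kinase gene Tk1 and Rrm2, for the small subunit of ribonucleotide reductase, had estimates of 0.16, 0.16 and 0.11.

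Values without overlap between TSPAN8-high and TSPAN8-low were found for 7 members that were higher in TSPAN8-high (Mki67, Top2a, Ttk, Tpx2, Rrm1, Gins1 and E2f1) and for Ccne2, which was lower, against 15.9% of all tested genes higher and 9.71% lower. Counted over the 39 members, the share higher was near the background and the share lower was below it. Each of these genes had the smallest p that an exact permutation test allows in this design, 0.1.

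The comparisons with undivided ID4-EGFP+ cells asked which fraction stands apart from the whole, and both share the 3 all ID4-EGFP+ libraries. No member passed in TSPAN8-high against all ID4-EGFP+ or in TSPAN8-low against all ID4-EGFP+, without or with the block. The background was 0.144% of tested genes in the first (3.09% with the block) and 0 in the second (0.0449% with the block). At an unadjusted p under 0.05 in limma, 9.74% of tested genes were counted in the first and 8.17% (910 genes) in the second. For TSPAN8-high the median estimates were 0.11 for the G2/M genes and 0.02 for the S-phase genes, against -0.01 for all tested genes, and with the Sertoli marker covariate the first became -0.00 and the second -0.10. For TSPAN8-low they were -0.15 and -0.12, against -0.07 for all tested genes, and -0.06 and -0.03 against 0.03 with a common median. Of the G2/M genes 17 of 21 were above 0 in TSPAN8-high against all ID4-EGFP+ and 3 of 21 in TSPAN8-low against all ID4-EGFP+ (7 of 21 with a common median), where all tested genes had 48.5% and 37.6% above 0.

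Estimates of single members against the whole are described here, although none of them passed. Ccne2 had a log2 fold change of -0.06 (SE 0.16) in TSPAN8-high and of 0.80 (SE 0.16, limma adjusted p = 0.408, 0.0532 with the block) in TSPAN8-low, each against all ID4-EGFP+. E2f1 stood at 0.00 (SE 0.15) in TSPAN8-high and at -0.36 (SE 0.15, limma adjusted p = 0.600) in TSPAN8-low. Gins2 stood at -0.44 (SE 0.19, limma adjusted p = 0.473, 0.0684 with the block) in TSPAN8-high and at 0.04 (SE 0.19) in TSPAN8-low. None of the 39 passed in either comparison, so which fraction differed from the whole was not resolved for any of them. Values in TSPAN8-high did not overlap those of the whole for Mki67, Ttk and Gins1 (higher) and Gins2 and Tyms (lower), against 6.79% and 8.34% of tested genes. In TSPAN8-low this held for Ccne2 (higher) and Mki67, Cdc20, Tpx2 and E2f1 (lower), against 3.44% and 10.8%. Counted over the 39 members, these were near or below the background shares.

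Members also deviated by replicate number, and the deviations were related to the base composition and the length of their transcripts. Across the 39 members, the deviation of a replicate number from the gene's group mean, averaged over the 3 groups, correlated with the GC content of the transcript (36.3% to 58.8%) with Pearson's r of -0.65 in number 1, -0.07 in number 2 and 0.79 in number 3. Over the 10439 tested genes with an annotated transcript the values were -0.34, -0.11 and 0.50. With log10 transcript length, r was 0.26, 0.29 and -0.55 over the members and 0.29, 0.02 and -0.36 over the tested genes. The parts of GC content and length were not separated. These are descriptions over genes that share libraries. The difference between TSPAN8-high and TSPAN8-low had r of 0.18 with GC content over the members and 0.04 over all these genes. With the GC trend of each library removed, Ccne2 and Gins2 passed without the block, 7 members passed with it, and the medians were 0.23 for the G2/M genes and 0.09 for the S-phase genes.

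**Figure D5:**
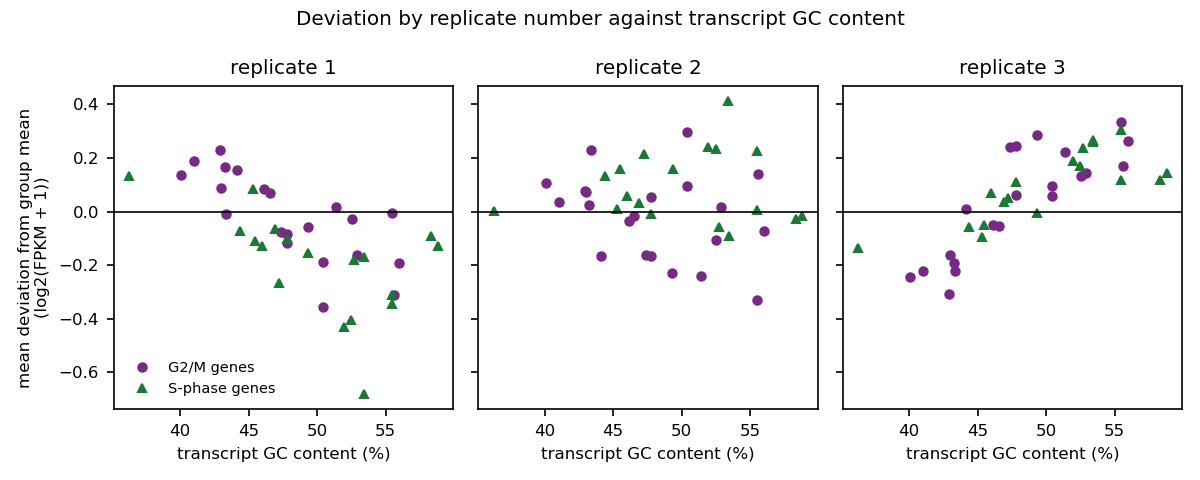
Deviation of the libraries of each replicate number from their group means, averaged over the 3 groups, on the log2(FPKM + 1) scale, against transcript GC content in percent, for the 21 G2/M genes and the 18 S-phase genes. The slope is downward in number 1 (r = -0.65), about flat in number 2 (r = -0.07) and upward in number 3 (r = 0.79).

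A wider set of 40 other mitosis genes and 40 other replication genes was examined in the same fit. These genes were read in the same libraries as the members and chosen with earlier results known. Their counts are therefore descriptions and not separate evidence. Of the mitosis genes 1 passed, Cdc25b, for a phosphatase that activates Cdk1, and with the block 14 passed, all higher in TSPAN8-high (35%, against 11.8% of all tested genes called higher with the block). Of the 40, 32 had estimates above 0 (80%, against 56.6% of all tested genes), with a median log2 fold change of 0.28. Cdc25b rose to 1.83, 2.57 and 3.35 FPKM in TSPAN8-high, against 0.805, 0.973 and 1.44 FPKM in TSPAN8-low, with 1.89, 1.89 and 2.01 FPKM in all ID4-EGFP+ (log2 fold change 0.78, SE 0.18, limma adjusted p = 0.0274, 0.00361 with the block). In the fit without a block, Cdc25b no longer passed when TSPAN8-high replicate 2 (0.0891) or 3 (0.0980) was removed, without TSPAN8-low replicate 1 (0.0829) or 2 (0.0791), without replicate 2 (0.252) or 3 (0.107) of all groups, without the filter (0.114), with the authors' normalized values (0.0536) and with the Sertoli marker covariate (0.136), while with the block it held without any library or replicate number, with an adjusted p of up to 0.0358, and was lost with block and covariate together (0.493). The other 3 with the smallest p were Ncaph, for a condensin subunit (log2 fold change 0.59, limma adjusted p = 0.0777, 0.00750 with the block), Prc1, for a spindle midzone protein (0.52, 0.0851 and 0.0247), and Zwilch, for a kinetochore protein (0.41, 0.0928 and 0.0283).

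Of the other replication genes 0 passed (9 of 40 with an unadjusted p under 0.05 in limma, against 22% of all tested genes). Estimates were above 0 in 27 of 40 (67.5%, against 56.6%), with a median of 0.12. With the block 6 were higher (15%, against 11.8%) and 2 lower (5%, against 7.34%), so these shares were near the background. The 4 with the smallest p moved in both directions. Mcm10, a replication initiation factor, had a log2 fold change of 0.65 (limma adjusted p = 0.0687, 0.00518 with the block) and Prim2, of the primase, 0.46 (0.0939 and 0.00980). Gmnn, for the inhibitor of Cdt1, stood at 214, 234 and 243 FPKM in TSPAN8-high, 314, 314 and 341 FPKM in TSPAN8-low, and 276, 267 and 315 FPKM in all ID4-EGFP+, with the fractions apart in every library (log2 fold change -0.49, limma adjusted p = 0.0555, 0.00745 with the block). Pola2, of the polymerase alpha-primase complex, stood at 48.5, 68.6 and 95.5 FPKM in TSPAN8-high, 86.7, 143 and 146 FPKM in TSPAN8-low, and 129, 140.5 and 197 FPKM in all ID4-EGFP+, with the fractions overlapping through TSPAN8-high replicate 3 (log2 fold change -0.83, limma adjusted p = 0.0953, 0.00151 with the block).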

How the data were processed

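RNA of sorted cells was turned into cDNA with the SMART-Seq v4 kit and into Nextera XT libraries, sequenced in pairs, per the labels' protocols. The kit does not mark strand. The authors deposited Cufflinks FPKM values, which were tested here. They also deposited normalized values, which were treated as signal and entered 1 alternative. The submitters' processing notes name FastQC, TopHat2 (2.0.12), Bowtie2 (2.2.3.0), Cufflinks and build mm9, and no annotation is named in the sources used here. Of 23813 entries, the 768 of 262 symbols on more than 1 entry were left out. A date stands in place of the symbol on 27 entries.

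A single limma fit (version 3.58.1, R 4.3.3, variance trend, two-sided) on log2(FPKM + 1) covered the 9 libraries and 3 groups, with a threshold at a Benjamini-Hochberg adjusted p of 0.05 over 11142 genes. Log2 fold changes are on that scale and understate changes of low genes. The procedure was tested on simulated data with independent noise for each gene and library. That simulation held no replicate number or GC effect, so it does not show how the fits behave with these. Same-numbered libraries deviated together (9 pairs, r of 0.26 to 0.48, against -0.46 to 0.28 for the 18 other pairs), a pattern in the data rather than in the labels. The 2 ranges overlap, and they are not independent because the deviations cancel out within each group. For this pattern a block fit is given beside results it changes. The members, lists and tests were chosen with earlier results of these data known. Library values are printed, in each subset, for the 6 members with the smallest p, the 2 with the highest mean, those that passed and those with an estimate below 0. Of each wider list the 4 genes with the smallest p are named, and of the markers by that rule Tspan8, Id4, Ddx4, Dazl and the 2 most abundant Sertoli genes. Transcript length, GC content, exon overlaps and near-identical copies came from GENCODE M21, a later build, and 93.7% of tested genes had a length. Python 3.11.15, pandas 2.3.3 and matplotlib 3.10.9 were used.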

Additional observations from a re-analysis of the deposited data

How the results depend on the processing

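For TSPAN8-high against TSPAN8-low, the median of the G2/M genes, 0.29 on the log2 scale, stayed above 0 in every setting run. Some settings cannot change this estimate and are no check of it. These are the block with all libraries, the filter, a fit of only the 2 groups, and leaving out an all ID4-EGFP+ library without the block. The median over all tested genes also moved with a common median, as given above. It was 0.20 with a common median (with or without the replicate block), 0.20 with the transcript length trend removed, 0.23 with the GC trend removed, 0.19 with the Sertoli marker score and the block together, and 0.23 to 0.37 with libraries left out; that of the S-phase genes was then 0.10 to 0.28. Members called numbered 1 (Ccne2; without the filter it was Mki67, and with the score Gins2), and 8 with the block, 6 with the block and a common median, 7 with the block and the length or GC trend removed, 2 with the GC trend removed (Ccne2 and Gins2) or with only the 2 groups in the fit (Ccne2 and Top2a), and 0 with the score and the block. Leaving out libraries or replicate numbers gave 0 to 3 members without the block and 1 to 15 with it. Without the block, Mcm3 and Cdc20 joined Ccne2 without TSPAN8-high replicate 1, Top2a joined it without all ID4-EGFP+ replicate 2, and none was left without replicate 2 or 3 of all groups. All tested genes called numbered 619, and 150 without the filter, 2131 with the block, 1993 with the block and a common median, 2109 and 2060 with the block and the length or GC trend removed, 288 with the score, 1 with the score and the block, and 10 to 633 (779 to 2325 with the block) with libraries left out. Without replicate 2 of all groups 10 were called, without replicate 3 of all groups 90, and without TSPAN8-high replicate 2 there were 185.

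For TSPAN8-high against all ID4-EGFP+, 16 genes were called, and 3 without the filter, 7 with the authors' normalized values, 344 with the block, 310 with the block and a common median, 104 with the score, 27 with only the 2 groups, 9 with the GC trend removed, 437 and 311 with the block and the length or GC trend removed, 0 with the score and the block, and 0 to 111 (87 to 598 with the block) with libraries left out. Members called were then 0 to 2. The G2/M median of 0.11 was -0.0031 with the score and 0.037 to 0.22 with libraries left out, and the S-phase median -0.08 to 0.13. For TSPAN8-low against all ID4-EGFP+, 0 genes were called, and 1 without the filter, 5 with the block, 28 with the block and a common median, 27 and 2 with the block and the length or GC trend removed, 2 with the score and the block, and 0 to 1 (0 to 14 with the block) with libraries left out. Ccne2 was the 1 member called there with the block and a common median, and with the block and the length trend removed. The G2/M median of -0.15 was -0.061 with a common median, -0.069 with the length trend removed and -0.21 to -0.10 with libraries left out, and the S-phase median -0.22 to -0.04.

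Changes of sign were followed for the members with printed library values, and against all ID4-EGFP+ for those of them with an unadjusted p under 0.05 in any comparison; none of the estimates below passed in its comparison. Members near 0 outside these also changed sign: with a common median 19 of 21 G2/M estimates, not 20, were above 0 in TSPAN8-high against TSPAN8-low, and 7 of 21, not 3, in TSPAN8-low against all ID4-EGFP+. In TSPAN8-high against TSPAN8-low, Pcna was 0.043 with the authors' normalized values, 0.11 with quantile normalization, 0.027 with the score and -0.13 to 0.10 with libraries left out, when Cdc6 was -0.18 to 0.048 and Tyms -0.23 to 0.043. In TSPAN8-high against all ID4-EGFP+, with the score Nek2 was -0.0031, E2f1 -0.13, Ccne2 0.057 and Cdc20 -0.077, E2f1 was -0.0011 with quantile normalization and -0.0023 with the length trend removed, and with libraries left out Nek2 was -0.032 to 0.23, E2f1 -0.092 to 0.061, Ccne2 -0.17 to 0.055 and Cdc20 -0.10 to 0.35. In TSPAN8-low against all ID4-EGFP+, Gins2 was -0.091 to 0.20 with libraries left out. The cause of these changes was not tested. The length and GC trends, the score with the block, and the block with libraries left out were added after the data were seen.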
